A study of Mus musculus with 2 samples.

Results

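Tenocytes, the collagen-making fibroblasts of tendon, were a small class of cells in injured mouse adductor muscle, and 174 of 23001 kept cell barcodes belonged to them. A barcode was kept with at least 200 genes and at most 10% of its unique molecular identifiers (UMIs, 1 per captured RNA molecule) from mitochondrial genes. It counted as a tenocyte where Tnmd and at least 2 of Scx, Fmod, Thbs4, Mkx, Kera and Comp had a UMI and neither Ptprc (leukocytes) nor Cdh5 (endothelium) had one. The cells were thus chosen by the measured UMIs of these genes, whose levels are given as a description with no test. The 2 droplet libraries came from the adductors of WT littermate controls and of Apoa1bp-/- mice, which lack the apolipoprotein A-I binding protein AIBP, and both groups had their femoral artery ligated 7 days before. Each genotype had 4 operated mice and is represented by 1 library. The labels do not say whether the mice were pooled, how old they were, of which sex, or in which cells the gene is deleted.

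Tendon is built from fibrils of type I collagen, whose spacing and thickness are set by small leucine-rich proteoglycans such as fibromodulin (Fmod), keratocan (Kera) and lumican (Lum). The basic helix-loop-helix factor scleraxis (Scx) and the homeobox factor mohawk (Mkx) drive the tendon programme, and tenomodulin (Tnmd), a membrane glycoprotein, is the marker of the differentiated tenocyte. Thrombospondin 4 (Thbs4) and cartilage oligomeric matrix protein (Comp) are pentameric glycoproteins that bind collagen. In muscle, tendon cells sit at the ends of the fibres, where type XXII collagen (Col22a1) marks the myotendinous junction.

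Basic helix-loop-helix factors bind E-boxes, written CANNTG, which reads the same on both strands. The 250 bases before the start of 3 of the genes described below are printed because Tnmd and Fmod are rule genes and Chad was among the genes that set tenocytes furthest apart from fibroblasts. They are from RefSeq on GRCm38.p6, all on the plus strand, with E-boxes in capitals, and no source used here names the build of the deposited counts.
Tnmd, chrX:133850758-133851007: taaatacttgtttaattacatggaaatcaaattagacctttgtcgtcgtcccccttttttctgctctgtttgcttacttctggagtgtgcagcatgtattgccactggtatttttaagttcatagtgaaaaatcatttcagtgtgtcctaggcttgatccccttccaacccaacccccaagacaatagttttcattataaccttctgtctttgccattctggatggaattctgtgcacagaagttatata
Fmod, chr1:134037004-134037253: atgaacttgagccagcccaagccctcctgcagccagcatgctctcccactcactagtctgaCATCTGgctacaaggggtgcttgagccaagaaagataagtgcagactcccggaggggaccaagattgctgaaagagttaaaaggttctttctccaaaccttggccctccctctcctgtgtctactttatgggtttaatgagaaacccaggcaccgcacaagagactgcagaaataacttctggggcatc
Chad, chr11:94564797-94565046: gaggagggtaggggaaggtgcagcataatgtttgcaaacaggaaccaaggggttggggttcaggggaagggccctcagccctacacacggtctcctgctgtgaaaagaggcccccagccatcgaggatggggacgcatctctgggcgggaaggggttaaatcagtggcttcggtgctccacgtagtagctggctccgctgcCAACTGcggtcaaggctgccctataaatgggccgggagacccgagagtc
The Fmod window held 1 E-box, CATCTG, 189 bases before the start, the Chad window held CAACTG 49 bases before it, and the Tnmd window held none. A match is a description of the letters and not of a bound site. Of the 7 rule genes, 4 had an entry and 2 of these held an E-box, and of the 15 genes with the clearest excess over fibroblasts named below, 12 had an entry, Gas2 with a pair of promoters. Of these 13 promoters 7 held an E-box, against 66.2% of 32851 promoters.

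Depth differed between the libraries. The WT library held 80954991 UMIs over 14035 barcodes and the Apoa1bp-/- library 80444279 over 9392. Tenocytes had a median of 9805 UMIs in WT (1635 to 24309) and 12586.5 in Apoa1bp-/- (701 to 39600), against 4461 and 6825 over all kept barcodes. Of 10 endothelial markers 4 were at 0 UMIs in WT and 3 in Apoa1bp-/- tenocytes, Pecam1 and Tie1 in both, beside Cdh5, which the rule excludes. Of 10 Schwann cell markers 5 and 4 were at 0, the defining Sox10 among them. Levels are CPM, the UMIs of a gene summed over the cells of a class and scaled to a common total. Summed macrophage markers reached 1610 CPM in WT and 987 CPM in Apoa1bp-/- tenocytes, against 31617 and 34848 CPM in macrophages. Endothelial markers summed to 20.5 and 22.2 CPM, against 6883 and 6652 CPM in endothelial cells, and Schwann markers to 162 and 185 CPM, against 12018 and 10849 CPM in Schwann cells. Markers of 2 other types summed higher in tenocytes than in the fibroblasts defined below. Pericyte and smooth muscle markers were at 756 and 805 CPM against 372 and 659 CPM. Satellite cell and myoblast markers were at 408 and 482 CPM against 244 and 256 CPM. The 2 libraries shared 43 barcodes, of which 1 was a tenocyte, and doublet calling marked 1 WT and 3 Apoa1bp-/- tenocytes. Barcodes of 1 library share their source, so every interval here is at 95% and covers counting error only, and no p-value is given.

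Tenocytes made up a larger share of the Apoa1bp-/- library. The rule found 62 of 13837 barcodes in WT, or 0.448% (exact Clopper-Pearson interval 0.344% to 0.574%), and 112 of 9164 in Apoa1bp-/-, or 1.22% (1.01% to 1.47%). The ratio of the shares was 2.73. Schwann cells were 0.455% of kept barcodes in WT and 1.39% in Apoa1bp-/-, and endothelial cells 2.99% and 4.38%. Muscle fibre barcodes were 1.57% and 3.26%, so a larger share was not particular to tenocytes. A fibroblast had UMIs of Pdgfra and Col1a1 and none of Tnmd, Ptprc or Cdh5. Among tenocytes and fibroblasts only, the tenocyte shares were 2.29% and 9.82%, a ratio of 4.29. Fibroblasts went the other way, from 19.1% of kept barcodes in WT to 11.2% in Apoa1bp-/-, which raises this ratio. The rule rests on detection and the Apoa1bp-/- barcodes were deeper, so every barcode was also thinned to 1000 UMIs before the rule was applied. This left 19 tenocytes of 13002 in WT and 61 of 8681 in Apoa1bp-/-, a ratio of 4.81. With 1 library per genotype, a difference between genotypes and one between dissections or dissociations cannot be told apart.

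**Figure D1:**
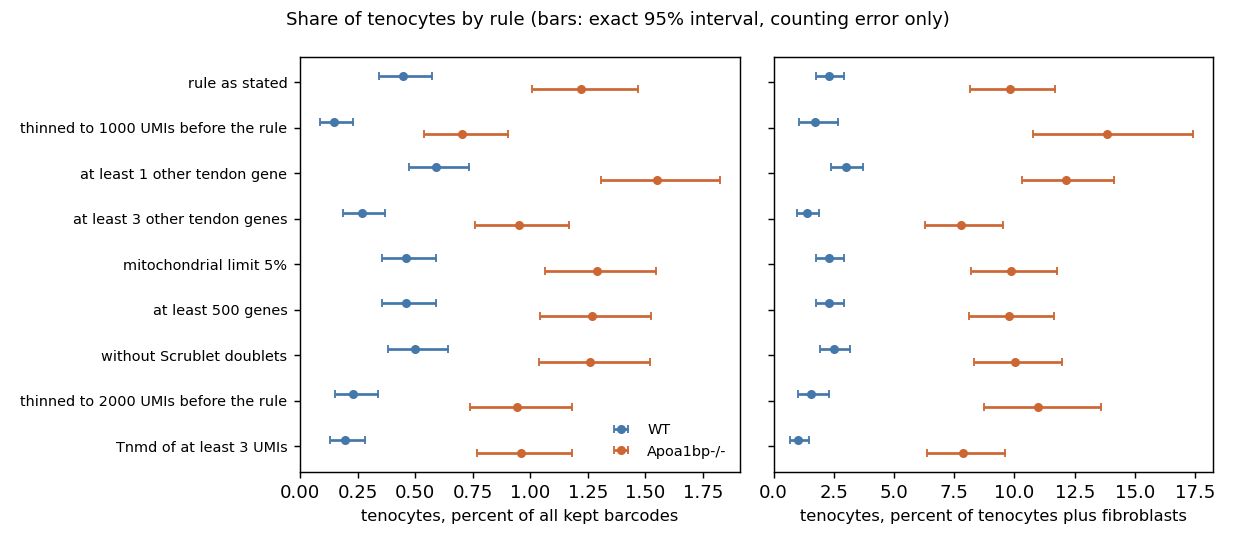
Tenocytes as a percent of all kept barcodes (left) and of tenocytes plus fibroblasts (right) in the WT and Apoa1bp-/- libraries, under the rule as stated and under 8 other settings. Points are shares and bars are exact 95% intervals for counting error. The Apoa1bp-/- point lies above the WT point in every row, with a ratio of 2.73 for the rule as stated and 4.81 after thinning to 1000 UMIs in the left panel.

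Tnmd itself separated the 2 sets of tenocytes. Its summed level was 551 CPM in WT and 1667 CPM in Apoa1bp-/- tenocytes, with a median of 2 and 18.5 UMIs per cell and a highest cell of 43 and 87 UMIs. In WT, 35 of the 62 cells (56.5%) had only 1 or 2 Tnmd UMIs and 2 cells (3.23%) had 20 or more. In Apoa1bp-/-, 24 of 112 (21.4%) had 1 or 2 and 54 (48.2%) had 20 or more. The ranges overlapped, but the cells with many Tnmd UMIs came almost wholly from the Apoa1bp-/- library. Among macrophages, which should lack the gene, 0.664% in WT and 1.00% in Apoa1bp-/- had a Tnmd UMI, at median depths of 5976 and 8113 UMIs, and they held 51 and 178 Tnmd UMIs in all.

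The other rule genes did not all follow Tnmd. Scx stood at 299 CPM in WT and 646 CPM in Apoa1bp-/- tenocytes, with UMIs in 36 of 62 and 86 of 112 cells. Kera was at 145 and 421 CPM, in 12 and 51 cells, and Comp at 97.2 and 221 CPM, in 12 and 30 cells. Mkx was sparse at 30.7 and 52.5 CPM, in 11 and 40 cells. Fmod and Thbs4 were close between the libraries, at 1191 and 1067 CPM for Fmod and 2670 and 2641 CPM for Thbs4. Thbs4 was the least selective of the set, because 30.5% of WT and 51.0% of Apoa1bp-/- fibroblasts also had a UMI of it, at 404 and 444 CPM. For Kera, fibroblasts held 0.117 and 0.818 CPM.

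**Figure D2:**
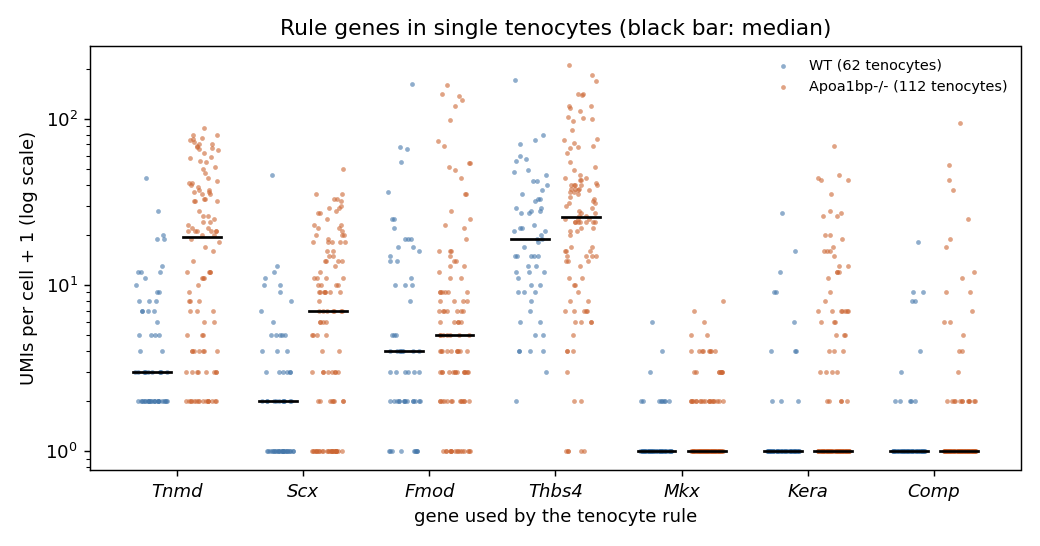
UMIs per cell plus 1, on a log axis, of the 7 rule genes in each of the 62 WT and 112 Apoa1bp-/- tenocytes, with black bars at the medians. Tnmd has its median at 2 UMIs in WT and 18.5 in Apoa1bp-/-, while most cells of both libraries sit at 0 UMIs of Mkx, Kera and Comp.

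Near the threshold, 25 tenocytes of each library had exactly 2 of the other tendon genes, with a median of 1 Tnmd UMI in WT and 2 in Apoa1bp-/-. Just outside it, 20 WT and 30 Apoa1bp-/- barcodes had Tnmd with 1 other gene and 18 and 27 had Tnmd with none. A further 389 WT and 238 Apoa1bp-/- barcodes had at least 2 of the other genes but no Tnmd, and 238 and 174 of these met the fibroblast rule. The exclusion of Ptprc and Cdh5 removed 21 and 27 barcodes, of which 9 in each library were called doublets.

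The tenocytes were not of 1 kind. Splits by Col22a1, Chad and Pdgfra were chosen after their values were seen and are described without a test. Col22a1 UMIs were found in 8 of 62 WT and 37 of 112 Apoa1bp-/- tenocytes. Chad, encoding chondroadherin, a leucine-rich matrix protein that binds collagen and integrins, was found in 6 and 11. No Apoa1bp-/- cell had both, although 37 of the 101 cells without Chad had Col22a1, and 1 WT cell had both. Median depth was 10008 UMIs in the Apoa1bp-/- cells with Col22a1 and 10378 in those with Chad.

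The 11 Apoa1bp-/- cells with Chad held the highest levels of fibril-organising genes. Fmod was at 9187 CPM in them against 455 CPM in the 101 cells without Chad, Comp at 2583 against 43.2 CPM, and Kera at 3271 against 206 CPM. Col1a1, the major tendon collagen chain, was at 44322 against 11895 CPM, and the lubricin gene Prg4 at 1534 against 34.5 CPM. Periostin (Postn), a matrix protein of repair tissue, went the other way, at 908 against 4868 CPM, as did smooth muscle actin (Acta2), at 26.5 against 707 CPM. The 6 WT cells with Chad showed the same pattern for Fmod, at 15784 against 531 CPM, and for Postn, at 434 against 6367 CPM, and their median depth of 3114.5 UMIs was below that of the other WT tenocytes. Angptl7, a secreted angiopoietin-like protein, was at 1381 CPM in those 6 cells and 5.35 CPM in the rest, and at 229 and 5.98 CPM in Apoa1bp-/-.

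Set against the cells with neither gene, the Chad cells and the cells with Col22a1 but no Chad were both high in Tnmd and Scx. In Apoa1bp-/-, Tnmd measured 3774 CPM in the 11 Chad cells, 3915 CPM in the 37 Col22a1 cells and 581 CPM in the other 64, whose median depth was 15541.5 UMIs. Scx followed at 855, 1604 and 255 CPM. In WT, with 6, 7 and 49 cells, Tnmd measured 1855, 1698 and 347 CPM and Scx 1026, 1299 and 142 CPM. Fmod was highest in the Chad cells and intermediate in the Col22a1 cells, at 9187, 735 and 347 CPM in Apoa1bp-/- and 15784, 1282 and 441 CPM in WT. Comp was high in the Chad cells only of these 3 sets, at 2583, 19.1 and 52.5 CPM in Apoa1bp-/- and 1855, 16.7 and 18.0 CPM in WT. Ptx4, a pentraxin, was highest in the Col22a1 cells. It measured 106, 430 and 26.7 CPM in Apoa1bp-/- and 39.5, 383 and 14.0 CPM in WT. Postn and Acta2 were highest in the cells with neither gene. Postn was at 908, 3855 and 5258 CPM in Apoa1bp-/- and 434, 4246 and 6621 CPM in WT. Acta2 was at 26.5, 115 and 935 CPM in Apoa1bp-/- and 78.9, 16.7 and 587 CPM in WT. Ly6a was highest in the Chad cells and lowest in the Col22a1 cells. Cells with neither gene were 64 of 112 members in Apoa1bp-/- and 49 of 62 in WT. Whether they are tenocytes or fibroblasts with few Tnmd UMIs was not tested.

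A further set of tenocytes had UMIs of Pdgfra, the receptor of interstitial fibroblasts, with 32 of 62 cells in WT and 47 of 112 in Apoa1bp-/-. These cells were deeper, with medians of 10444 UMIs against 7586 in WT and 16067 against 10284 in Apoa1bp-/-, and the part of depth in the values was not tested. In Apoa1bp-/-, Tnmd was at 756 CPM in these cells and 2686 CPM in the rest, Kera at 50.3 and 835 CPM, and Ly6a, a marker of connective tissue progenitors, at 322 and 83.7 CPM. In WT the Tnmd levels were 445 and 700 CPM, and Kera was detected in 5 of 32 cells against 7 of 30. Acta2 differed in direction between the libraries, at 242 CPM with Pdgfra and 882 CPM without in WT, and at 812 and 488 CPM in Apoa1bp-/-. In a separate split, cells with 1 or 2 Tnmd UMIs held more Acta2 than cells with 3 or more, at 799 against 189 CPM in WT and 1287 against 389 CPM in Apoa1bp-/-.

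Set against fibroblasts of the same library, tenocytes were higher in most listed tendon glycoproteins and lower in most listed genes of interstitial and sheath fibroblasts. A gene was called at a ratio of at least 1.5 or at most 1/1.5 with at least 50 CPM in either class. In both libraries 104 of 2819 genes (3.69%) were higher in tenocytes and 184 (6.53%) were lower. In WT alone 7.37% were higher and 15.4% lower, and in Apoa1bp-/- alone 5.33% and 8.35%. The rule genes and the fibroblast rule genes Pdgfra and Col1a1 helped to set these classes, so the counts describe the classes.

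Collagens and matrix proteins led the higher genes. Col22a1 stood at 145 CPM in WT and 201 CPM in Apoa1bp-/- tenocytes, and only 1 and 2 UMIs of it fell in 2647 and 1029 fibroblasts. Its ratios were 2482 (434 to 99181) in WT and 1226 (337 to 10170) in Apoa1bp-/-. Chad was at 88.7 and 101 CPM, with 1 UMI in WT fibroblasts, and at least 413-fold higher in Apoa1bp-/-, where fibroblasts had 0 UMIs and 3 counts over the class were taken as the floor. Cilp2, a cartilage intermediate layer protein, was at 114 and 210 CPM against 0.584 and 0.409 CPM, with ratios of 196 (100 to 427) and 513 (218 to 1591). The type XI collagen chains, which nucleate fibrils, were also high. Col11a1 stood at 333 CPM in WT and 520 CPM in Apoa1bp-/- tenocytes, 21.1 (17.5 to 25.5) and 21.7 (18.9 to 24.8) times the fibroblast level, and Col11a2 had ratios of 87.6 and 149.

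Other named genes were not matrix proteins. Ptx4 had ratios of 302 and 417 in WT and Apoa1bp-/-, and Slc5a3, the sodium and myo-inositol transporter of osmotic stress, had ratios of 13.6 and 16.8, although 1 cell held 68.1% of the WT Slc5a3 UMIs. Chodl, a C-type lectin, had ratios of 10.6 and 15.2, Zfp185 14.1 and 22.6, and Rgs2, a regulator of G protein signalling, 9.14 and 12.2. Rflnb, Gas2, Ecrg4, Cpxm2 and Hbegf completed the 15, with ratios from 3.88 to 7.70 in Apoa1bp-/- and from 4.78 to 7.50 in WT. For Hbegf, a ligand of the epidermal growth factor receptor, 1 cell held 43.8% of the Apoa1bp-/- UMIs.

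The lowest genes were fibroblast genes. Cxcl14, a chemokine, stood at 47.8 CPM in WT and 35.2 CPM in Apoa1bp-/- tenocytes against 951 and 349 CPM in fibroblasts. Pi16, a marker of adventitial progenitor fibroblasts, was at 46.1 and 32.7 CPM against 939 and 305 CPM, and 1 cell held 64.2% of its Apoa1bp-/- tenocyte UMIs. Ratios of Ccl11, Cd55, Efemp1, Scara5, Clec3b, Dpep1, Tnxb and Ace lay between 0.0468 and 0.152 in WT and between 0.0786 and 0.150 in Apoa1bp-/-.

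**Figure D3:**
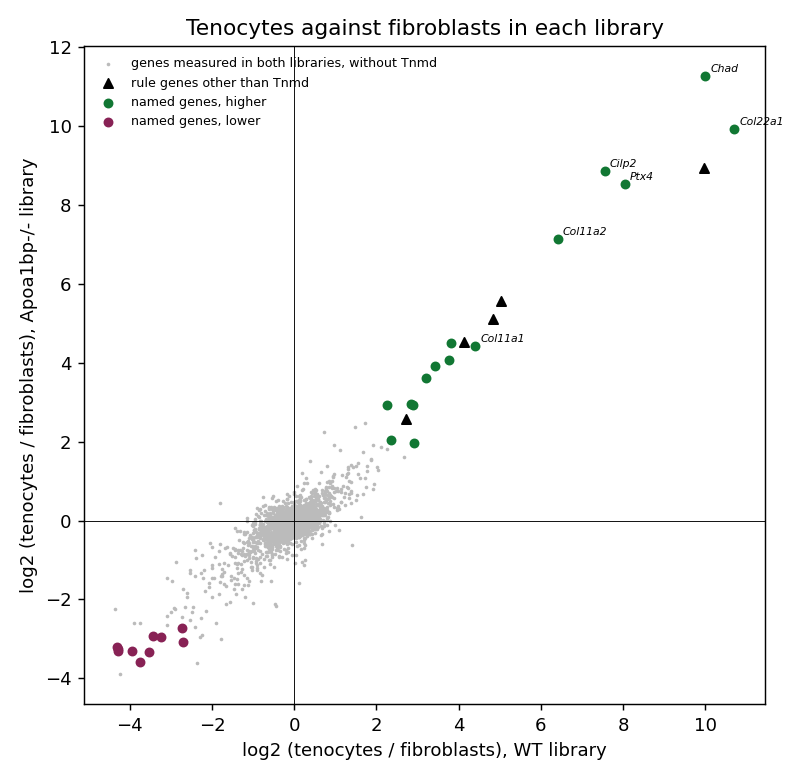
Log2 ratio of tenocytes to fibroblasts (prior count 0.5) in the WT library (x axis) and the Apoa1bp-/- library (y axis), 1 point per gene, with rule genes as triangles and the named genes coloured. Among the coloured genes Chad, Col22a1, Cilp2, Ptx4 and Col11a2 lie furthest up in both libraries, Tnmd is not drawn because fibroblasts hold none by rule, and the Chad value on the y axis rests on 0 fibroblast UMIs and so on the prior count.

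By gene list, 11 of 16 measured tendon glycoproteins were higher in both libraries and 1 was lower. They include the rule genes Tnmd, Thbs4 and Comp, beside Thbs1, Tnc, Cilp, Clec11a and others. Fibril-forming collagens gave 2 higher and 1 lower of 9. Of 14 sheath and progenitor genes, 11 were lower, Pdgfra of the class rule among them, with medians of -2.35 in WT and -1.54 in Apoa1bp-/- on the log2 scale, and only Prg4 was higher, at 3.28 and 5.56 times the fibroblast level. The cells with Chad held 42 of 180 Prg4 UMIs in WT and 174 of 226 in Apoa1bp-/-. In the tenocytes without Chad, Prg4 was at 246 and 34.5 CPM, so the Apoa1bp-/- ratio rests mainly on the 11 Chad cells. Of 12 interstitial fibroblast genes, 9 were lower and 1, the calcification inhibitor Mgp, was higher. Complement genes were lower in 6 of 9 and higher in none. The medians over all measured genes were -0.0038 in WT and -0.01 in Apoa1bp-/-.

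Genes of mechanical sensing were higher in 5 of 14 measured members and lower in none. These were the stretch-activated channel genes Piezo1, with ratios of 2.46 in WT and 2.49 in Apoa1bp-/-, and Piezo2, with 3.79 and 1.91, and the matricellular genes Ccn1, Ccn2 and Ccn4. Elastic fibre genes divided, with Eln, Fbn2, Mfap4, Emilin1, Ltbp2 and Ltbp3 higher and Fbn1, Efemp1, Emilin2, Ltbp1 and Ltbp4 lower. For the fibrillins, Fbn2 was at 119 and 141 CPM in tenocytes against 39.4 and 66.5 CPM in fibroblasts, while Fbn1 was at 406 and 415 against 1170 and 778 CPM. Among 13 activated and contractile genes, Cthrc1, Tagln, Myl9 and Ddah1 were higher and Fap was lower.

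In the comparison of the genotypes, the targeted gene was checked first. Naxe, the current symbol of Apoa1bp, had 32 UMIs in 18 WT tenocytes, or 54.6 CPM (37.3 to 77.1), and 0 in Apoa1bp-/- tenocytes. It was at least 29.5-fold lower there, taking 3 counts, or 1.85 CPM, as the floor. All kept Apoa1bp-/- barcodes together had 0 UMIs of it and the WT barcodes 4068.

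Between the libraries, Apoa1bp-/- tenocytes were lower in 4 of 9 fibril-forming collagens and 7 of 23 enzymes that process collagen. Cell cycle genes were higher in 10 of 11 measured members, a count that the level limit given next can favour. A gene was measured with at least 50 CPM in either library. A gene under that level in WT thus entered only through Apoa1bp-/- and could only be called higher, and the reverse. At 1.5-fold, 331 of 3135 genes (10.6%) were higher and 354 (11.3%) were lower, against 8.01% and 13.6% of 3245 genes in fibroblasts and 6.65% and 8.0% of 3111 in activated fibroblasts, those with at least 2 of Tnc, Cthrc1 and Postn. Of the tenocyte calls, 36.3% of the higher and 36.7% of the lower were also called in fibroblasts of the same libraries. Which tenocytes were captured differed too, since 78.6% of Apoa1bp-/- and 43.5% of WT tenocytes had 3 or more Tnmd UMIs. The part of this difference in the ratios was not tested. Ratios within those cells are given as a description, since Tnmd is a rule gene and the cells are a subset of the same tenocytes.

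Matn4, encoding the matrix protein matrilin 4, had the highest ratio of the named genes. It stood at 18.8 CPM in WT (9.37 to 33.6) and 138 CPM in Apoa1bp-/- (120 to 157), a ratio of 7.34 (4.02 to 14.9), with UMIs in 7 and 28 cells. In fibroblasts its ratio was 0.487. Of its 223 Apoa1bp-/- UMIs, 185 were in the 11 cells with Chad, and among cells without Chad its level was 8.91 CPM in WT and 25.2 CPM in Apoa1bp-/-.

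Of the 12 higher named genes, most are known from chromatin or cell division. The high mobility group gene Hmgn2 stood at 130 CPM in WT and 469 CPM in Apoa1bp-/-, a ratio of 3.62 (2.85 to 4.64), and its fibroblast ratio was 2.99. Hmgb2 was at 109 and 432 CPM, with a ratio of 3.96 (3.06 to 5.20). Stmn1, a microtubule-destabilising protein, had a ratio of 4.80, Cks2 4.74, and the condensin and cohesin family genes Smc4 and Smc2 6.34 and 4.15. H2ax, Tubb4b, Jpt1 and H2az1 had ratios from 2.09 to 3.32. Thinned to 1000 UMIs, 36 of 111 Apoa1bp-/- tenocytes (32.4%) had a UMI of Hmgn2 against 6 of 62 in WT (9.68%), and the unthinned shares were 83.0% and 41.9%.

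Mitotic RNA was counted per cell. Cells with at least 2 of 8 mitotic genes (Mki67, Top2a, Birc5, Ccna2, Ccnb1, Cdk1, Ube2c and Cenpf, a set chosen after the values were seen) made up 6 of 62 in WT (9.68%, 3.63% to 19.9%) and 22 of 112 in Apoa1bp-/- (19.6%, 12.7% to 28.2%), and the intervals overlapped. Thinned to 1000 UMIs they were 0 of 62, which allows a share of up to 4.84% at 3 counts (exact upper limit 5.78%), and 9 of 111 (8.11%, 3.77% to 14.8%), again with overlapping intervals. In fibroblasts the thinned shares were 1.76% and 5.47%, and in activated fibroblasts 2.92% and 7.68%. Of the 11 measured cell cycle genes, 10 were higher and none lower, with a median log2 ratio of 1.93. In fibroblasts 10 of 10 were higher, with a median of 1.36, and in activated fibroblasts 10 of 11, with a median of 1.20. Genes under 50 CPM in WT entered these counts only through Apoa1bp-/-, so their higher call says little. When tenocytes were set against fibroblasts, with 50 CPM needed in either class of both libraries, 5 cell cycle genes were measured.

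Isg15, an interferon-induced ubiquitin-like protein, stood at 58.0 CPM in WT and 160 CPM in Apoa1bp-/- tenocytes, a ratio of 2.76 (1.92 to 4.07). In fibroblasts its ratio was 5.02, and in tenocytes with 3 or more Tnmd UMIs it was 8.34, where WT held 17.8 CPM. Of 4 measured interferon genes in tenocytes 3 were higher, the others being Bst2 at 1.55 and Psmb8 at 1.69, and none was lower.

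Of the 12 lower named genes, several encode matrix proteins. Hmcn1, a large extracellular protein of cell junctions, stood at 85.3 CPM in WT and 11.1 CPM in Apoa1bp-/-, a ratio of 0.130 (0.0716 to 0.227), and Hmcn2 had a ratio of 0.172. Podn, a leucine-rich proteoglycan, was at 69.9 and 13.6 CPM, and the tenascin Tnxb at 143 and 44.5 CPM. Fibulin 2 (Fbln2) was at 551 CPM (493 to 614) and 219 CPM (196 to 243), a ratio of 0.397, with fibroblasts at 0.533. Cpxm1, a carboxypeptidase-like protein, was at 474 and 146 CPM, and 24 of 62 WT cells against 16 of 111 Apoa1bp-/- cells had a UMI of it after thinning. Crispld2 had a ratio of 0.156, with 46.6% of its WT UMIs in 1 cell, and Spon1 and the insulin-degrading enzyme Ide had 0.290 and 0.223. Thinned to 1000 UMIs, 59.3% of WT and 37.8% of Apoa1bp-/- fibroblasts had a UMI of Tnxb. The fibroblast share was also lower for Hmcn2 (31.1% and 17.2%), Podn (15.4% and 9.47%), Crispld2 (16.3% and 6.64%) and Cpxm1 (24.7% and 16.5%). The same held for Ide (7.86% and 2.73%), Spon1 (4.99% and 3.03%) and, least, Hmcn1 (2.88% and 2.05%).

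For Lrrc15 and Smim1 the 2 cell classes stood apart in value. Lrrc15, a membrane protein of activated fibroblasts, was at 189 and 61.8 CPM in tenocytes, a ratio of 0.326 (0.246 to 0.431), and at 61.8 and 58.2 CPM in fibroblasts, a ratio of 0.942 (0.855 to 1.04). Smim1, a small membrane protein, had ratios of 0.287 and 0.929. Within tenocytes of 3 or more Tnmd UMIs the ratios were 0.31 for both genes, and the difference between the classes was not tested. The make-up of the fibroblasts also differed, with 995 of 2647 activated in WT and 652 of 1029 in Apoa1bp-/-. The part of this shift in the fibroblast ratios was not tested.

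**Figure D4:**
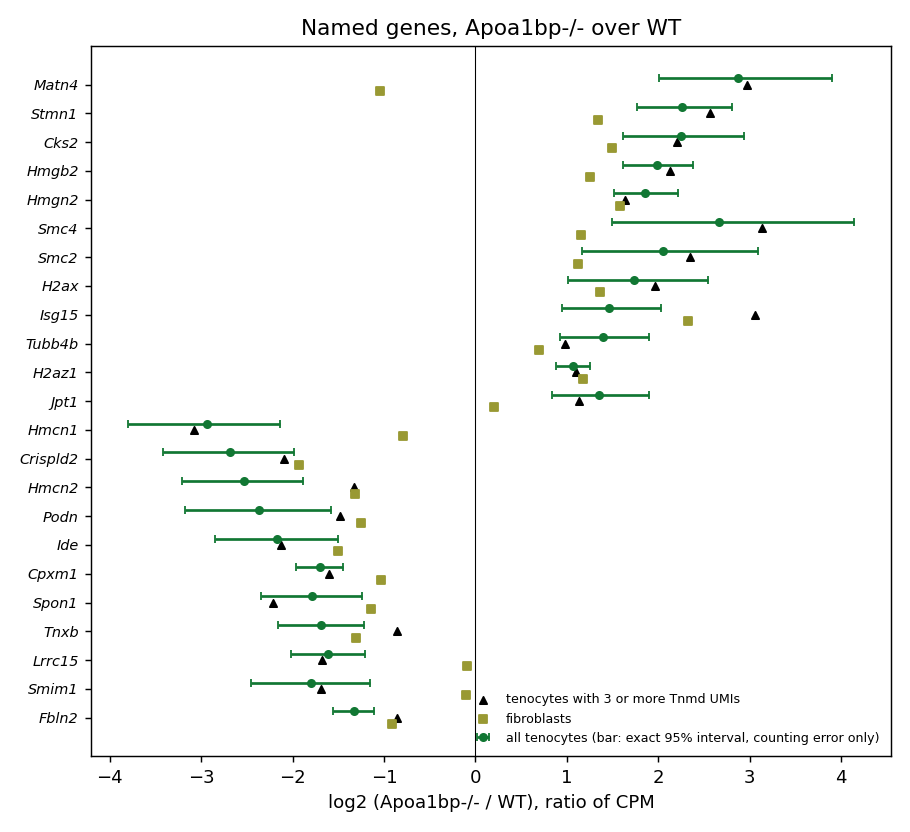
Log2 ratio of Apoa1bp-/- to WT CPM for the named genes other than Naxe, in all tenocytes (circles, with exact 95% intervals for counting error), in tenocytes with 3 or more Tnmd UMIs (triangles) and in fibroblasts (squares). Triangles are a subset of the cells behind the circles, and Matn4 is the gene whose fibroblast ratio, 0.487, lies on the other side.

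Chains of type III and type V collagen were lower in Apoa1bp-/- tenocytes and both type XI chains were higher. Col1a1 stood at 21034 CPM in WT and 14167 CPM in Apoa1bp-/-, a ratio of 0.674, which did not pass the limit for a lower call. Col3a1 was at 14385 and 8645 CPM (ratio 0.601) and Col5a1 at 1754 and 953 CPM (0.543). Col11a1 and Col11a2 had ratios of 1.56 and 2.15. Of 9 fibril-forming collagens, 2 were higher and 4 lower (Col3a1, Col5a1, Col5a2 and Col5a3), with a median of -0.57, against 0 higher and 1 lower of 7 and -0.10 in fibroblasts. Activated fibroblasts lay between, with 0 higher and 1 lower of 7 and a median of -0.34. Col2a1, the cartilage collagen, was under the level limit in both libraries, with 1 UMI in WT and 56 UMIs in 20 Apoa1bp-/- cells.

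Enzymes that modify and cross-link collagen were lower in 7 of 23 and higher in none, with a median of -0.33, against 1 of 23 lower and -0.07 in fibroblasts. In activated fibroblasts 1 of 24 was lower, with a median of -0.18. The 7 were the prolyl hydroxylase subunit P4hb, the lysyl hydroxylases Plod1 and Plod2, Colgalt1, Bmp1, Adamts2 and the lysyl oxidase Loxl2, with the lowest ratio, 0.613, for Plod1 and the highest, 0.664, for Bmp1. Among cells with 3 or more Tnmd UMIs 2 of 23 were higher and 5 lower, where 380 and 441 of 3159 genes were. Without the mitotic cells 4 of 23 were lower, where 360 of 3140 genes were. Of the proteoglycans, Lum stood at 594 CPM in WT and 291 CPM in Apoa1bp-/-, a ratio of 0.490, but 0.831 among cells with 3 or more Tnmd UMIs, and decorin (Dcn) had a ratio of 1.18.

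Mitochondrially encoded genes were higher in 7 of 12 and lower in none, with a median of 0.64, against 3 of 12 and 0.33 in fibroblasts and 3 of 12 and 0.54 in activated fibroblasts. The share of mitochondrial UMIs was also higher in these cells, with medians of 1.87% in Apoa1bp-/- and 1.23% in WT tenocytes, and its part in the result was not tested. Among tendon transcription factors Scx, Mkx and the shear-responsive Klf2 were higher and Foxp1 was lower of 7, and the first 2 are rule genes. Sheath and progenitor genes were lower in 3 of 11, among them Prg4 at 307 and 140 CPM, with a median of -0.40. Among cells with 3 or more Tnmd UMIs 2 were higher and 3 lower. In fibroblasts 11 of 15 were lower, with a median of -0.89, and in activated fibroblasts 7 of 15, with a median of -0.52.

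Tendon glycoproteins divided, with 4 of 17 higher and 3 lower. Higher were the rule genes Tnmd and Comp, Matn4, and Cilp2 at 1.84 times the WT level. Lower were the thrombospondins Thbs2, from 908 to 511 CPM, and Thbs3, from 119 to 56.2 CPM, and Ecm2. Of 14 activated and contractile genes none was higher and Lrrc15 and Spon1 were lower, against 5 higher and 1 lower of 14 in fibroblasts. In activated fibroblasts 5 of 14 were higher and 2 lower. The median was 0.09 in tenocytes, 0.45 in fibroblasts and 0.03 in activated fibroblasts. Of 10 imprinted growth genes Dlk1 had a ratio of 3.64 and Plagl1, a zinc finger factor, 0.438, and in fibroblasts 5.04 and 1.11. No gene of 11 in IGF and FGF signalling passed the fold in either direction.

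In the secretory pathway 3 of 18 measured genes were higher and 2 lower. Over all genes measured in tenocytes 10.6% were higher and 11.3% lower, the shares against which the lists here are to be read. The chaperone Hsp90b1 had a ratio of 1.77, with 1.66 in fibroblasts, and the disulphide isomerases Pdia3 and Pdia6 had 1.55 and 1.65. Mia3, which loads collagen into transport carriers, had 0.638. Of 18 nuclear genes of oxidative phosphorylation 3 were higher, and of 8 glycolysis genes Gapdh and Eno1 were higher, at 1.64 and 1.78. Complement genes were lower in 3 of 6, with C1s1, a serine protease of the classical pathway, at 147 and 73.5 CPM. In fibroblasts 8 of 9 complement genes were lower.

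Chemokine genes were higher in 4 of 5 measured members, but few cells held them. Ccl2 and Cxcl2 were under 50 CPM in WT and entered only through the Apoa1bp-/- library. They could thus only be called higher, and the count is not a result about the list. Cxcl1, a neutrophil attractant, was at 80.2 and 173 CPM in 9 WT and 21 Apoa1bp-/- cells. Ccl2, which attracts monocytes, was at 30.7 and 109 CPM, with 48.6% of the Apoa1bp-/- UMIs in 1 cell. Cxcl2 had 4 and 115 UMIs, with 63.5% of the latter in 1 cell, and macrophages held 420 and 592 CPM of it. The part of RNA from other cells in these values was not tested.

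**Figure D5:**
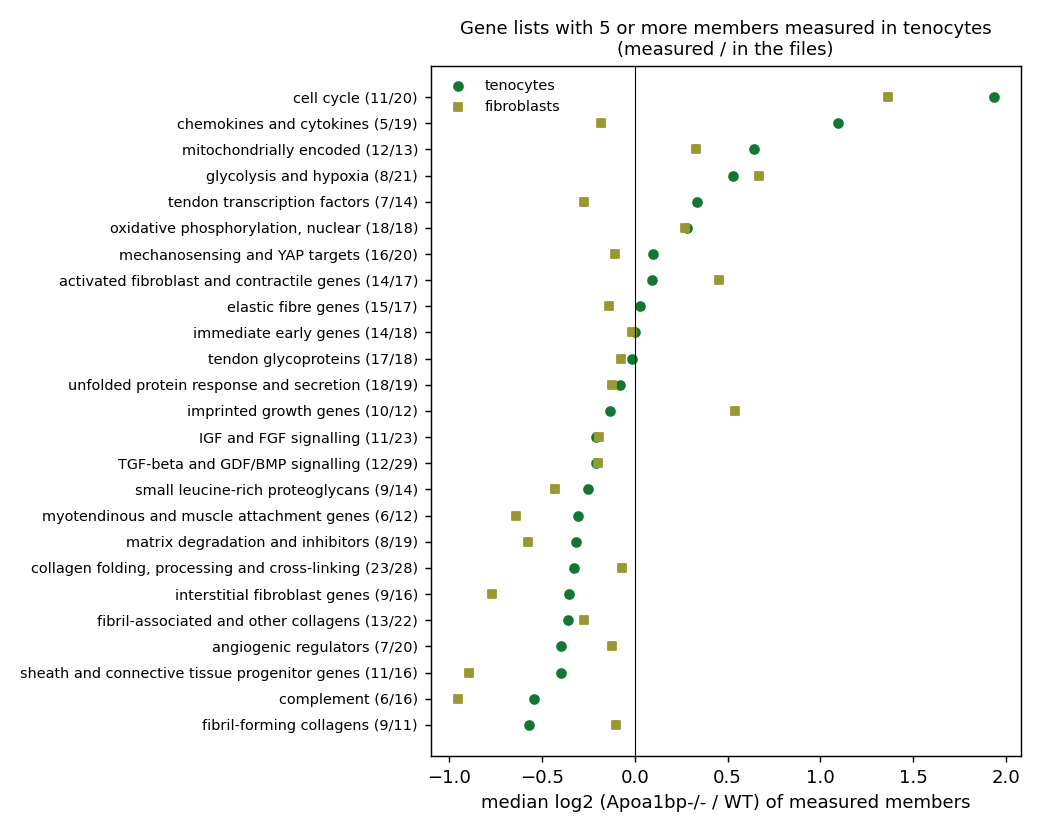
Median log2 ratio of Apoa1bp-/- to WT for gene lists with 5 or more members measured in tenocytes (circles), with that number and the list size in brackets. Squares are fibroblast medians over the members measured in fibroblasts. Cell cycle genes lie furthest to the right in tenocytes, at 1.93, and fibril-forming collagens furthest to the left, at -0.57. Members were measured at 50 CPM in either library, so a list can hold members that reached it in a single library.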

How the data were processed

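The deposited matrices hold raw UMI counts for 32574 genes per barcode, made with Cell Ranger, version 5.0.0 per the file headers and 2.1.1 per the submitters' processing notes, a conflict left unsettled. Per the labels' protocols, muscle was digested with collagenase D at 1 mg/mL and passed through a 70 µm strainer. After the limits on genes and mitochondrial UMIs, 198 WT and 228 Apoa1bp-/- barcodes were removed. Scrublet (scanpy 1.11.5) called 12.0% of WT and 5.72% of Apoa1bp-/- barcodes doublets, which were kept and left out as an alternative. UMIs were summed per class and library and divided by the class total to give CPM. Intervals were exact Poisson for CPM, conditional binomial for ratios and Clopper-Pearson for shares (scipy 1.17.1, numpy 2.4.6). No test was run, since each group is 1 library. The members, lists, comparisons and named-gene rules were chosen with earlier results of these data known. Named genes were ranked by the ratio bound nearest 1. The 15 highest and 10 lowest over fibroblasts needed 50 CPM in the higher class of both libraries. The 12 highest and 12 lowest between genotypes needed 50 CPM, a UMI in 25% of the tenocytes of the higher library and no cell with over 50% of that library's tenocyte UMIs of the gene. Rule, ribosomal, mitochondrial, haemoglobin, sex-linked and clone-named genes, and genes 10 times higher in macrophages, endothelium or fibres, were left out of the ranking. Of each list the rule names the 4 members with the largest absolute log2 ratio and the 2 with the most UMIs, and other list members were chosen after their values were seen. The interval code was tested on simulated data.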

Additional observations from a re-analysis of the deposited data

How the results depend on the processing

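No paired analysis was possible because each genotype is 1 library. The Apoa1bp-/- to WT ratio of tenocyte shares of all kept barcodes was 4.81 after thinning to 1000 UMIs, 4.09 after thinning to 2000 and 4.92 with at least 3 Tnmd UMIs, and of stromal barcodes 7.99, 7.03 and 7.80. The 2000-UMI thinning, the limit of 3 Tnmd UMIs and leaving out mitotic cells were chosen after seeing the data. Counts between genotypes, given as higher and lower, were 964 and 1016 with cells thinned to 1000 UMIs, 823 and 997 at a floor of 20 CPM, 150 and 149 at 100 CPM, 4346 and 3161 with no floor, 803 and 791 at a lower fold limit and 92 and 69 at 2-fold. The mean of per-cell CPM gave 550 lower. Counts over fibroblasts were 182 and 359 after thinning, 192 and 380 at 20 CPM, 59 and 97 at 100 CPM, 826 and 3637 with no floor, 193 and 333 at the lower fold limit, 49 and 98 at 2-fold, and 204 and 410 against Pi16 fibroblasts. The mean of per-cell CPM gave 296 lower and activated fibroblasts 102 lower. Of 715 ratios of named genes under the settings tried, 0 changed direction and 202 fell outside the counting interval of the reported value, and 23 of the 715 are lower bounds against 0 UMIs. For Smc4 after thinning no fold is given, since both libraries were at or under 3 counts. All 24 named genes between genotypes kept the CPM direction in the share of cells with a UMI after thinning to 1000 UMIs, Smc4 on only 1 of 111 cells against 0 of 62. The settings and the thinned shares reuse the UMIs that ranked these genes, so a kept direction is a description and not a test. Depth limits the genes measured, since 62 and 112 cells gave 586233 and 1618808 UMIs.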
